A study of Mus musculus with 6 samples.

Results

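The secretory and detoxifying genes of club cells were compared between lungs of Smad1 conditional knockout (CKO) mice, in which Smad1 was removed from the lung epithelium, and wild type lungs. The genes are Scgb1a1, Scgb3a1, Scgb3a2, Cyp2f2, Pon1, Retnla, Aldh1a1, Aldh1a7 and Cckar, and every probe set annotated with 1 of these symbols was taken. Each of the 9 genes had 1 probe set, so 9 of 45037 probe sets are described, and 9 of the 18193 genes measured. Left lung lobes came from 3 CKO and 3 wild type embryos of strain C57/BL6 at E18.5, the end of gestation. The embryos form 3 pairs, CKO with wild type, and 1 Affymetrix Mouse430_2 array measured the RNA of each lobe. The sources used here do not give the Cre driver, the deleted part of Smad1 or the alleles that the wild type animals carried. Nothing states whether the animals of a pair were littermates. The p-values of the paired fit measure the spread of the differences between these 3 pairs.

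Club cells are non-ciliated secretory cells of the conducting airways. They secrete small proteins of the secretoglobin family into the airway lining, and in rodents they carry much of the lung's cytochrome P450 activity, which makes them a site where inhaled compounds are broken down or activated. Smad1 relays signals from bone morphogenetic protein receptors to the nucleus, where it acts on transcription. In a whole lobe, fewer cells of a type and less RNA per cell cannot be told apart.

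Values are the deposited intensities on a linear scale, and differences are log2(intensity + 1) of CKO minus wild type, taken within pairs. All 9 genes lay above the median probe set in mean intensity. Scgb1a1, the usual marker of club cells, was brighter than 99.8% of probe sets.

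The array of Smad1 CKO 3 differed from the rest in its controls. Its 18S ribosomal RNA control probe sets averaged 2194, against 154.0 to 201.0 on the other 5, and its beta-actin control probe sets averaged 4187, against 14693 to 17861. In pair 3, which holds this array, the 15013 brightest probe sets had a median difference of -0.97, while pair 1 gave -0.30 and pair 2 gave -0.02. Smad1 CKO 1 had an Xist level of 10.9 (log2), against 6.07 to 7.70 on the other arrays, and an Eif2s3y level of 3.78, against 7.06 to 9.04, so genotype and a sex-linked difference cannot be told apart in pair 1. Results are therefore given for each pair. Where a gene's level moved with that of similarly bright probe sets, the part of the array in its result was not tested.

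The 9 genes fell into 3 patterns. Pon1, Retnla and Aldh1a1 were lower in every CKO lung than in any wild type lung. Scgb1a1, Scgb3a2 and Cyp2f2 differed little in pairs 1 and 2 and were lower in pair 3. Aldh1a7 and Cckar were higher in the CKO lungs of pairs 1 and 2, and Scgb3a1 in those of pairs 2 and 3. Adjusted over all probe sets (limma, Benjamini-Hochberg, threshold 0.05), 0 of the 9 genes passed. One probe set in all passed as lower, or 0.00222%, and 0% passed as higher. At an unadjusted p under 0.05, 3 of the 9 were lower and 1 was higher, while 9.96% of all genes were lower and 4.96% higher. Lower values in all 3 pairs were seen for 4 of the 9 genes, against 29.3% of all genes, and higher values in all 3 pairs for 0, against 21%. Groups that did not overlap, with CKO below wild type, were seen for 3 of the 9, against 6.05% of all genes, and with CKO above wild type for 0, against 4.25%. The 9 genes were chosen with earlier results of these data known, and these shares are not matched for brightness. The counts are therefore a description and no test of the group. With 3 arrays against 3, an exact permutation test cannot go below 0.1, or 0.25 within pairs, and none was run.

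**Figure D1:**
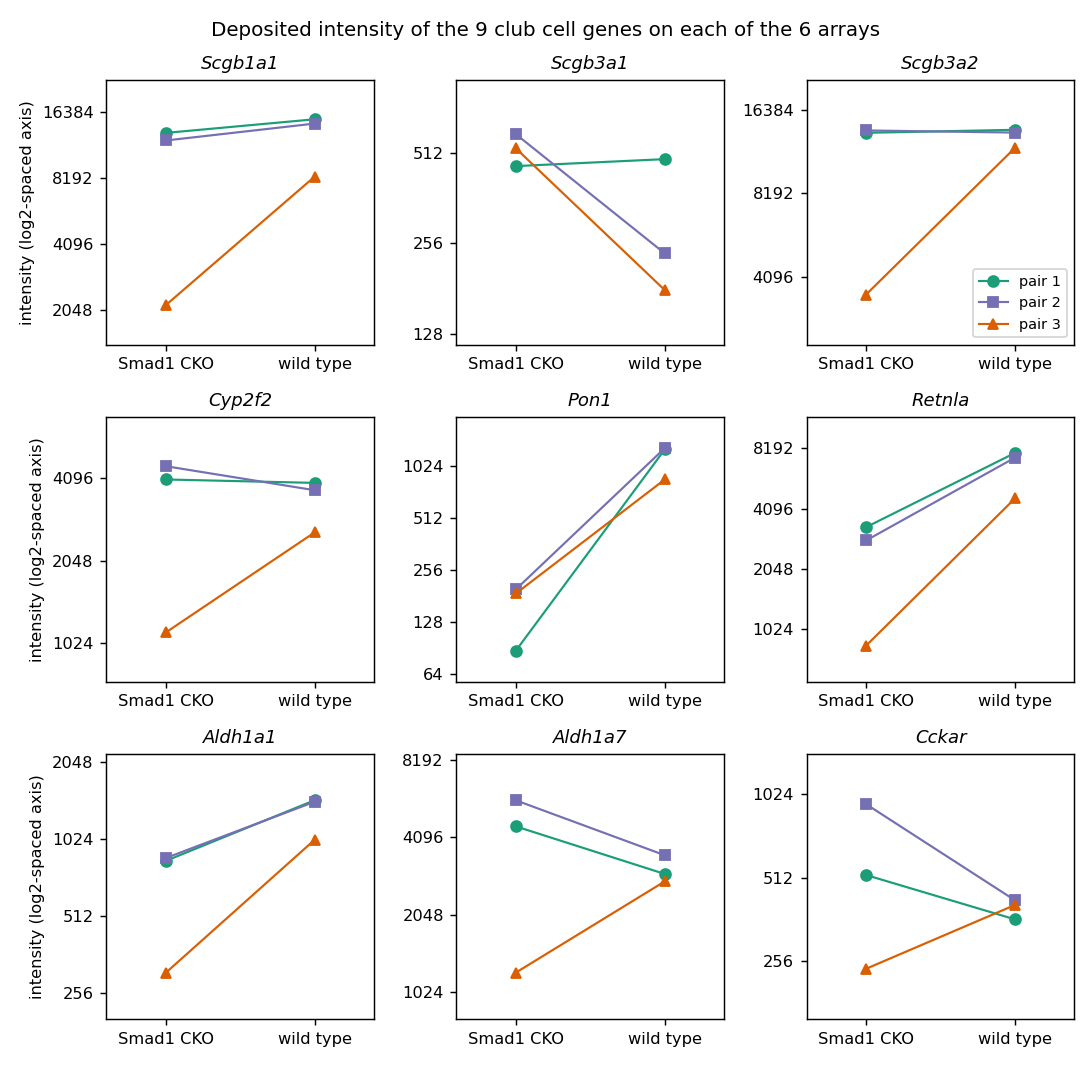
Deposited intensity of each of the 9 club cell genes (vertical axes, spaced in log2 and set for each gene) in Smad1 CKO and wild type lungs, with a line joining the 2 animals of a pair. The lines of Pon1, Retnla and Aldh1a1 run the same way in all 3 pairs, while those of Aldh1a7 and Cckar turn in pair 3.

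Promoters are shown for genes at the centre of these patterns: Pon1 and Retnla, the pair with the largest lower values, and Aldh1a1 with Aldh1a7, neighbouring relatives on chromosome 19 whose differences ran apart. The sequences come from RefSeq (GRCm38.p6), which held promoters of 6 of the 9 genes among those used here, and each covers 250 bases before the gene's start on the gene's strand. Aldh1a1 has 2 starts there, and the 1 that resembles Aldh1a7 is printed. In Pon1 and Retnla capitals mark the motif TTGCNNAA, searched on both strands, which fits the consensus of C/EBP factors, and in Retnla also a TATA box (TATAAA). In the Aldh1a1 and Aldh1a7 promoters capitals mark the longest run they share.
Pon1, chr6:5193947-5194196, minus strand: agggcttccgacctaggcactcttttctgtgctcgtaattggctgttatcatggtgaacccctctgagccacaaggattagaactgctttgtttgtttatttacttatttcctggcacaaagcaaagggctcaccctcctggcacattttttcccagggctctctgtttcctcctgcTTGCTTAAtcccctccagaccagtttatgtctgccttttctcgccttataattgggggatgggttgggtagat
Retnla, chr16:48842359-48842608, plus strand: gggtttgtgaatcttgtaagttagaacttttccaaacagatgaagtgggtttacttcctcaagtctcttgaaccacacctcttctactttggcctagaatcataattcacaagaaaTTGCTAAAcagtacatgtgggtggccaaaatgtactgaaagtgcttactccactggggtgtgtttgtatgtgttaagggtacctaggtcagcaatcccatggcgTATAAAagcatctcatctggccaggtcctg
Aldh1a1, chr19:20601718-20601967, plus strand: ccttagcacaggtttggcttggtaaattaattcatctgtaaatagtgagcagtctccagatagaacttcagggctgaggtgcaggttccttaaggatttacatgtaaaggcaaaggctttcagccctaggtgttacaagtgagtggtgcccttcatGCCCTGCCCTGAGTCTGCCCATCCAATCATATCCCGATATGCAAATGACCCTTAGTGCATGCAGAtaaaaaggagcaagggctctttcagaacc
Aldh1a7, chr19:20727557-20727806, minus strand: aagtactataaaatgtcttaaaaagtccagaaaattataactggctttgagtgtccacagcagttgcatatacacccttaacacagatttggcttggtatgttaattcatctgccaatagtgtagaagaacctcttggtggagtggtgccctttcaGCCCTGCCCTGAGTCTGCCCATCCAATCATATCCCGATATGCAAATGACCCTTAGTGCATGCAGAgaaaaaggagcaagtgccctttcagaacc

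TTGCNNAA lay at positions -73 to -66 of Pon1 and -134 to -127 of Retnla, counted back from the start, and 9.56% of the 32851 mouse promoters hold it. The TATA box of Retnla lay at -30 to -25, and 12.4% of promoters hold those letters on either strand. The BMP-responsive SMAD motif GGCGCC was in none of the 4 windows printed, and 9.59% of promoters hold it. The short SMAD core GTCT, or its reverse AGAC, was found 2 times each in Pon1, Aldh1a1 and Aldh1a7 and 1 time in Retnla, and 82.9% of promoters hold it. TATAAA also lay at -244 to -239 of Aldh1a7. The Aldh1a1 and Aldh1a7 windows shared 176 of 250 bases in a global alignment (70.4%), including an unbroken run of 65. The other Aldh1a1 start shared 56% of bases with Aldh1a7, close to the 51.2% to 55.2% of the unrelated genes in the set. That start, not printed, holds TTGCNNAA on the opposite strand at -13 to -6. Which Aldh1a1 start the lung uses was not tested.

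Pon1 had the largest difference of the 9. It encodes paraoxonase 1, an esterase and lactonase best known from liver and blood plasma that hydrolyses organophosphates and oxidised lipids. Its intensity was 87.2, 197.1 and 186.5 in CKO lungs 1 to 3, against 1269.5, 1292 and 851 in wild type lungs 1 to 3. The 3 CKO lungs were 14.4-fold, 6.53-fold and 4.54-fold below their wild type partners, and the groups did not overlap. The means were 156.9 ± 60.6 in CKO and 1137 ± 248 in wild type lungs (SD, n = 3 each). The log2 differences were -3.85, -2.71 and -2.18, with a mean of -2.91 ± 0.85 (SD over pairs), a 7.53-fold lower level with a 95% interval of -3.75 to -2.07. The adjusted p over all probe sets was 0.367 (limma). It was 0.0055 without pair 3, where 0.0533% of probe sets passed as lower. It was 0.0228 with the dimmest probe sets left out (30025 tested), where 0.0566% passed as lower, and 0.00481 with an intensity trend in the prior, where 0.0666% did. In the other 7 alternatives Pon1 did not pass, with an adjusted p of 0.179 to 0.781 (limma).

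The relatives of Pon1 lie beside it on chromosome 6, in the order Pon1, Pon3, Pon2. Pon3, a lactonase, had intensities of 475.8, 583.7 and 170.9 in CKO lungs, against 792.0, 820.8 and 673.9 in wild type lungs. Its groups did not overlap, and its differences were -0.73, -0.49 and -1.97. Pon2, expressed in most tissues, had differences of -0.37, -0.26 and -1.20 by its brightest probe set, and its other 3 probe sets did not all run that way. Taken within the same arrays, the difference of Pon1 minus that of Pon3 was -3.12, -2.22 and -0.21 in pairs 1 to 3 (mean -1.85 ± 1.49). The gap between these neighbours was thus wide in pairs 1 and 2 and small in pair 3.

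Because Pon1 is a gene of liver as well, liver markers were read beside it. Of 10 measured, 0 were lower in all 3 pairs and 4 were higher, against 29.3% and 21% of all genes. Their median difference was 0.43. Their summed intensity was 561.2 to 1017 in CKO lungs, against 531.0 to 642.6 in wild type lungs. Alb, the gene of serum albumin, was at 114.2, 93.2 and 128.2 in CKO lungs, against 74.96, 72.7 and 85.6 in wild type lungs. Ahsg (fetuin A) was at 0.65 ± 0.33, Apoa1 (an apolipoprotein) at 0.82 ± 0.60 and Afp (alpha-fetoprotein) at 1.17 ± 1.29 in log2 difference, and none passed (adjusted p = 0.367 each, limma). Of these 10 genes, 3 exceeded the median probe set, and their median difference in pair 2 was -0.02. Dim probe sets lay higher in general: the 15013 brightest had a median difference of -0.45, against 0.0028 over all. The part of liver RNA in the lower Pon1 was not tested.

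Retnla, which encodes the secreted resistin-like molecule alpha, was also lower throughout. Its intensity was 3308, 2838 and 845.2 in CKO lungs, against 7776, 7365 and 4603 in wild type lungs. The highest CKO lung lay below the lowest wild type lung, and the means were 2330.5 ± 1308 in CKO and 6582 ± 1725 in wild type lungs (SD, n = 3 each). The log2 differences were -1.23, -1.38 and -2.44, with a mean of -1.68 ± 0.66, 3.21-fold lower, and a 95% interval of -2.39 to -0.98 (adjusted p = 0.367, limma). Without pair 3 the mean was -1.30 (adjusted p = 0.141), and without Smad1 CKO 3, unpaired, it was -1.07 (adjusted p = 0.917).

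Retnla is made by airway epithelium and by alternatively activated macrophages, and macrophage markers were set beside it. Of 14 measured, 3 were lower and 4 were higher in all 3 pairs, against 29.3% and 21% of all genes. The median difference of the 14 was 0.0088, or 0.27 after cyclic loess. Their summed intensity was 4198 to 7751 in CKO lungs, against 5282 to 6457 in wild type lungs, ranges that overlap. Arg1 (arginase), another gene of alternatively activated macrophages, was at 34.2, 24.4 and 23.9 in CKO lungs, against 110.8, 71.5 and 117.7 in wild type lungs. Its difference was -1.81 ± 0.39 (adjusted p = 0.367, limma), with CKO values below the array medians of 69.96 to 77.8. C1qa, a complement gene that macrophages express, was at 115.0, 221.3 and 78.6 in CKO lungs, against 274.0, 288.4 and 198.2 in wild type lungs. Its difference of -0.98 ± 0.52 was lower in all 3 pairs, C1qb was at -0.77 ± 0.75 and C1qc at -0.47 ± 0.42 (adjusted p = 0.367 each, limma). These genes were named for the smallest p of the 14 (limma), and the 4 that were higher in all 3 pairs are not among them. The part of macrophages in the lower Retnla was not tested. Of the other resistin-like genes, Retn was at 0.74 ± 0.25 and Retnlb, next to Retnla on chromosome 16, at 0.30 ± 0.45, while Retnlg was not analysed here.

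Aldh1a1, an aldehyde dehydrogenase that oxidises retinaldehyde to retinoic acid, was the other gene without overlap. Its intensity was 840.6, 862.4 and 307.0 in CKO lungs, against 1452, 1432 and 1017 in wild type lungs. CKO lungs 1 and 2 were nearly alike, as were their partners. The differences were -0.79, -0.73 and -1.72, with a mean of -1.08 ± 0.56, 2.12-fold lower, and a 95% interval of -1.72 to -0.44 (adjusted p = 0.367, limma). Without Smad1 CKO 3, unpaired, the mean was -0.59 (adjusted p = 0.917).

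Aldh1a7, a rodent relative of Aldh1a1 encoded next to it, ran the other way in pairs 1 and 2. Its intensity was 4516, 5706 and 1218 in CKO lungs, against 2948, 3487 and 2759 in wild type lungs. CKO lungs 1 and 2 were above all wild type lungs, and CKO lung 3 was below them. The differences were 0.62, 0.71 and -1.18, so the mean of 0.05 ± 1.06 joins opposite values (95% interval -0.95 to 1.04, adjusted p = 0.949, limma). Within the same arrays Aldh1a7 exceeded the difference of Aldh1a1 by 1.403 in pair 1, 1.44 in pair 2 and 0.55 in pair 3, a mean of 1.13 ± 0.51. Similarly bright probe sets had pair 3 medians of -1.67 for Aldh1a7 and -1.20 for Aldh1a1. Their coding sequences are closely related, and how far each probe set reads the other gene's RNA was not tested.

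The remaining aldehyde dehydrogenases and paraoxonases gave a mixed picture. Of 12 measured, 5 were lower and 3 were higher in all 3 pairs, against 29.3% and 21% of all genes. The median of the 12 was -0.26, and 0 passed. Aldh9a1 was at -0.67 ± 0.53, and the mitochondrial Aldh2 was at -0.82 ± 1.15 by its brightest probe set, with pair values of -0.23, -0.09 and -2.14. Its other probe sets disagreed in sign. Aldh1a2, which makes retinoic acid in mesenchyme, was at -0.15 ± 0.47, and Aldh1a3, an epithelial form, was at 0.45 ± 0.52. Aldh7a1 was at -0.64 by its brightest probe set, with pair values of -0.04, 0.19 and -2.07, and its other probe sets were at 0.26 and 0.46. Aldh1l1 was at -0.29, with a second probe set at 0.08, and those of Aldh1a3 ran from 0.11 to 0.58. Aldh1b1 was at 0.54, Aldh3a2 at -0.22, Aldh3b1 at 0.20 and Aldh3a1 at 0.13.

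**Figure D2:**
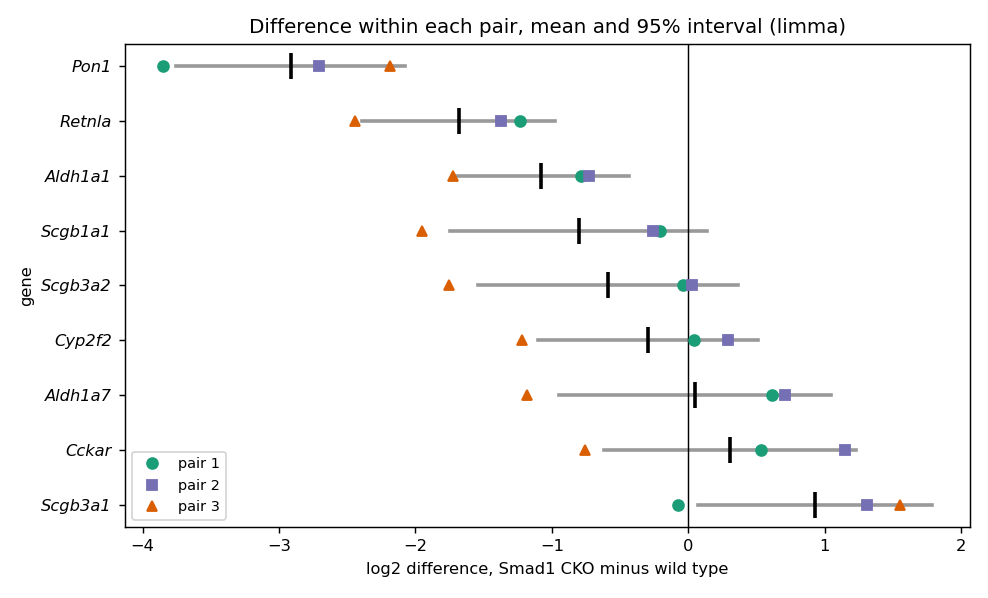
Log2 difference (horizontal axis, Smad1 CKO minus wild type) of each gene in pairs 1, 2 and 3 (points), with the mean of the 3 pairs (black tick) and its 95% interval from limma (grey bar). Intervals of Pon1, Retnla and Aldh1a1 lie below 0 and that of Scgb3a1 above 0; pair 3 lies left of pairs 1 and 2 for all genes but Pon1 and Scgb3a1.

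Of the secretoglobins, the main secreted products of these cells, Scgb1a1 and Scgb3a2 moved alike and Scgb3a1 did not. Within the same arrays, the difference of Scgb3a2 minus that of Scgb1a1 was 0.17, 0.28 and 0.19 in pairs 1 to 3. Scgb1a1, which encodes the club cell secretory protein, had intensities of 13146, 12138 and 2149 in CKO lungs, against 15173, 14504 and 8304 in wild type lungs. Its differences of -0.21 and -0.26 in pairs 1 and 2 were small beside the -1.95 of pair 3. The mean was -0.80 ± 0.99 (95% interval -1.74 to 0.14, adjusted p = 0.367, limma). The 110 probe sets of similar brightness, those within the same 0.5-wide range of mean log2 intensity, had a median of -1.98 in pair 3. The pair 3 difference of Scgb1a1 was thus close to that median. Wild type lung 3 was itself the lowest of the wild type lungs for Scgb1a1, so the match covers the difference and not the level on CKO array 3.

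Scgb3a2, a secretoglobin found early in the developing airways, was at 13512, 13779 and 3527 in CKO lungs, against 13851, 13537 and 11920.0 in wild type lungs. Pairs 1 and 2 gave -0.04 and 0.03, and pair 3 gave -1.76. The mean was -0.59 ± 1.01, with a 95% interval of -1.54 to 0.37 (adjusted p = 0.407, limma). CKO lungs 1 and 2 lay within the range of the wild type lungs, and CKO lung 3 lay far below it.

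Scgb3a1, a secretoglobin of larger airways, was the exception among the 3. Its intensity was 461.8, 588.7 and 528.3 in CKO lungs, against 487.0, 237.2 and 179.4 in wild type lungs. The CKO lungs were close to each other, while wild type lung 1 stood above the other wild type lungs, so the groups overlap. The differences were -0.08, 1.31 and 1.55, and the mean was 0.93 ± 0.88, 1.90-fold higher, with a 95% interval of 0.07 to 1.79 (adjusted p = 0.367, limma). The mean was 1.43 without pair 1, 0.74 without pair 2 and 0.62 without pair 3, and the last 2 had intervals that include 0 (-0.31 to 1.79 and -0.10 to 1.33). It was the single gene of the 9 that was not lower in pair 3. Its measured relative Scgb2b27 was at 0.41 ± 0.27.

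Cyp2f2, the cytochrome P450 that activates naphthalene in mouse airways, was at 4058, 4539 and 1118 in CKO lungs, against 3943, 3707 and 2598 in wild type lungs. Its differences were 0.04, 0.29 and -1.22, with a mean of -0.29 ± 0.81 (95% interval -1.10 to 0.51, adjusted p = 0.594, limma). Cckar, the receptor for the peptide cholecystokinin, was at 523.4, 942.3 and 240.5 in CKO lungs, against 362.4, 424.7 and 408.2 in wild type lungs. CKO lungs 1 and 2 were above all wild type lungs, at 0.53 and 1.15 over their partners, while CKO lung 3 had a difference of -0.76. The mean was 0.31 ± 0.97 (95% interval -0.62 to 1.23, adjusted p = 0.629, limma). The ligand gene Cck was at 0.10 ± 0.27, the second receptor Cckbr at 0.56 ± 0.53 and the related peptide gene Gast at 0.50 ± 0.61.

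Each gene was also set against probe sets of the same brightness. Its pair difference was reduced by the median of all probe sets within the same 0.5-wide range of mean log2 intensity, a description chosen after the values were seen. Pon1 was then at -3.51, -2.67 and -1.26, Retnla at -1.01, -1.38 and -0.77, and Aldh1a1 at -0.49, -0.71 and -0.52. Aldh1a7 was at 0.84, 0.70 and 0.49, Cckar at 0.87, 1.18 and 0.17, and Scgb3a1 at 0.26, 1.34 and 2.48. Cyp2f2 was at 0.26, 0.28 and 0.45 and Scgb3a2 at 0.07, 0.01 and 0.23, while Scgb1a1 was at -0.10, -0.27 and 0.03. On this scale 3 of the 9 genes were below their range in all 3 pairs, against 17.8% of all genes, and 5 were above it in all 3, against 23.1%.

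**Figure D3:**
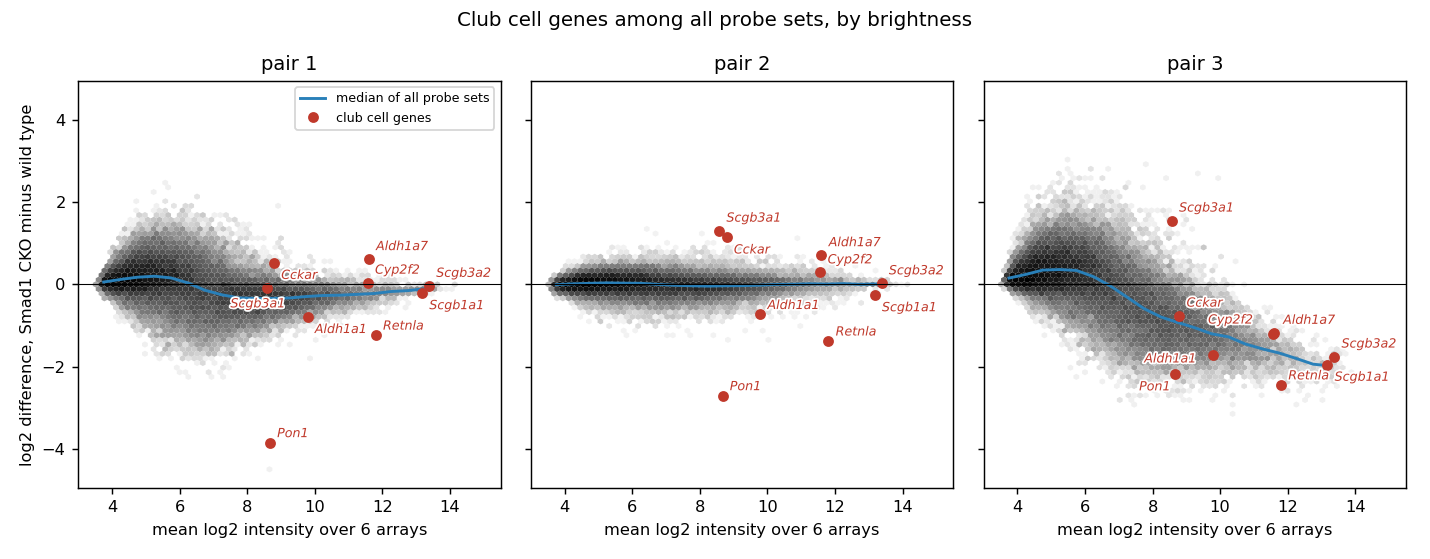
Log2 difference within each pair (vertical axis, Smad1 CKO minus wild type) against mean log2 intensity over the 6 arrays, for all 45037 probe sets (grey, darker where denser; values beyond the axis range drawn at its edge), their median by brightness (blue line) and the 9 club cell genes (red). In pair 3 the line falls away among bright probe sets, and Scgb1a1 and Scgb3a2 lie near it, whereas Pon1 and Retnla lie below the line and Aldh1a7 above it in each panel.

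Cyclic loess normalization between arrays gave a like order. Pon1 was at -2.49, Retnla at -1.05 and Aldh1a1 at -0.56, and Scgb3a1 was at 1.34, Cckar at 0.74 and Aldh1a7 at 0.67. These 6 genes, 3 lower and 3 higher, had an unadjusted p under 0.05 on that scale, against 6.25% of all genes lower and 8.82% higher, and 0 of them passed after adjustment (adjusted p = 0.336 each, limma). Cyp2f2 was at 0.33, Scgb3a2 at 0.12 and Scgb1a1 at -0.11. The normalization moved the median of all genes, -0.09 with the deposited values, to 0.05.

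**Figure D4:**
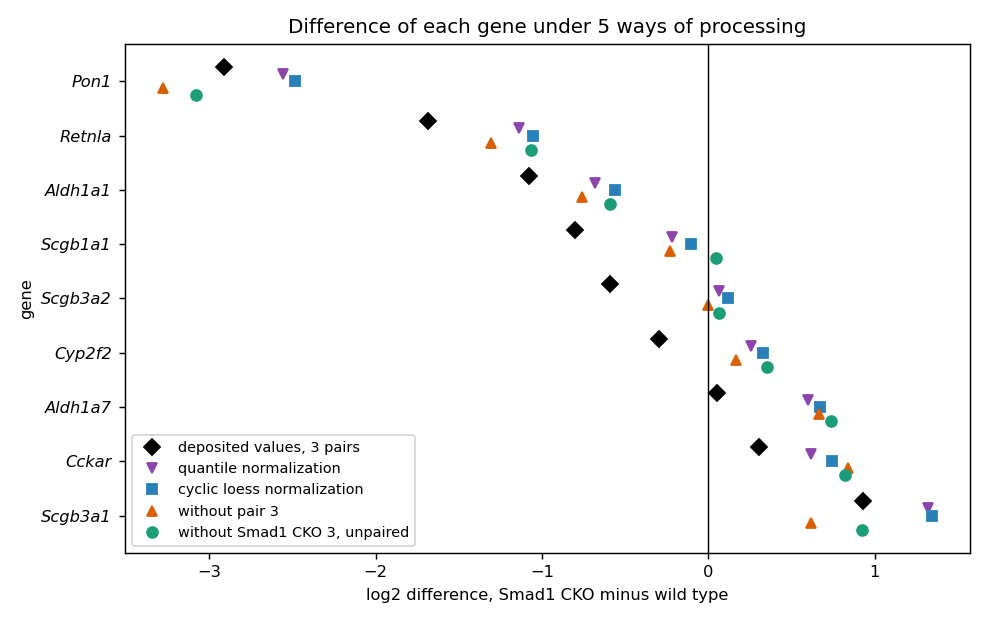
Log2 difference of each gene (horizontal axis, Smad1 CKO minus wild type) with the deposited values and under 4 other ways of processing (markers). Pon1, Retnla and Aldh1a1 stay below 0 and Scgb3a1, Cckar and Aldh1a7 above 0 in all 5, while Scgb1a1, Scgb3a2 and Cyp2f2 lie on both sides of 0.

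The median difference over the 9 genes was -0.59, against -0.09 over all genes. Pair 1 gave -0.08, pair 2 gave 0.03 and pair 3 gave -1.72. Without pair 3 it was -0.005, with 4 of the 9 lower and 3 higher in both remaining pairs, against 34.2% and 26.8% of all genes. The summed intensity of the 9 was 40454, 41591 and 10119 in CKO lungs, against 47262, 45985 and 32639.9 in wild type lungs, and it overlapped between the groups.

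Other markers of club cells ran in both directions. Of 28 measured, 11 were lower and 5 were higher in all 3 pairs, against 29.3% and 21% of all genes. The median of the 28 was -0.28 over 3 pairs, -0.0002 without pair 3 and 0.17 after cyclic loess. Krt15, a keratin, was at -1.27 ± 0.80, Nupr1, a stress-induced nuclear protein, at -1.26 ± 1.00, Aox3, an aldehyde oxidase, at -0.95 ± 0.66 and Sec14l3, a lipid-binding protein, at -0.93 ± 0.83. Their pair values were lower in all 3 pairs, and none passed (adjusted p = 0.367 each, limma). Cbr2, the carbonyl reductase of mouse lung, was at 8631, 8720 and 2300.1 in CKO lungs, against 8913, 9103 and 8785 in wild type lungs, and so resembled Scgb3a2. This gene was named after its values were seen.

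Enzymes of the first phase of xenobiotic metabolism had a median of -0.29 over 21 genes, or -0.073 after cyclic loess. Among these, 10 were lower and 3 higher in all 3 pairs, against 29.3% and 21% of all genes, and 0 passed. Cyp2e1, a P450 that oxidises ethanol and small solvents, was at 125.7, 277.7 and 191.1 in CKO lungs, against 427.3, 410.5 and 692.2 in wild type lungs. Its groups did not overlap, and its difference was -1.39 ± 0.72 (adjusted p = 0.367, limma). Adh1, an alcohol dehydrogenase, was at -1.05 ± 1.12 and the aldehyde oxidase Aox1 at -0.38 ± 0.16.

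Regulators of the airway epithelium were 16 genes, transcription factors with the Notch receptor gene Notch2 and the ligand gene Jag1. In all 3 pairs 4 were lower and 0 higher, against 29.3% and 21% of all genes. The median of the 16 was -0.23, or -0.040 without pair 3 and 0.23 after cyclic loess. Cebpa, a C/EBP factor of lung and liver epithelium, was at 1198, 1149 and 485.0 in CKO lungs, against 2041, 1763 and 1343 in wild type lungs. Its groups did not overlap, and its difference was -0.95 ± 0.45 (adjusted p = 0.367, limma). Cebpd was at -0.71 ± 0.55, the Notch target Hey1 at -0.51 ± 0.41 and Sox2, a factor of the conducting airways, at -0.65 ± 0.75. Sox2 was higher in pair 2, at 0.10. These 4 were named for the smallest p of the 16 (limma). After cyclic loess Cebpa was at -0.40, Cebpd at -0.10, Hey1 at -0.02 and Sox2 at -0.48.

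Markers of mucus-producing goblet cells differed by small amounts. Of 10 measured, 0 passed, and 7 were higher and 0 lower in all 3 pairs, against 21% and 29.3% of all genes. The median was 0.36, or 0.30 without pair 3. CKO lungs lay above all wild type lungs for 4, against 4.25% of all genes. Spdef, a goblet cell transcription factor, was at 116.9, 87.8 and 114.8 in CKO lungs, against 70.6, 64.8 and 68.5 in wild type lungs. Its difference was 0.63 ± 0.17, that of the mucin gene Muc5ac was 0.44 ± 0.13, that of the forkhead factor Foxa3 0.43 ± 0.12 and that of Muc5b 0.37 ± 0.08 (adjusted p = 0.367 each, limma). Of these 10 genes, 4 exceeded the median probe set, and dim probe sets lay higher in general: the 15013 brightest had a median difference of -0.45, against 0.0028 over all probe sets.

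Alveolar type 2 markers served as a neighbouring epithelial cell type. Of 11 measured, 10 were lower in all 3 pairs, against 29.3% of all genes. For 9 the CKO lungs lay below all wild type lungs, against 6.05% of all genes. The median was -1.45, with pair medians of -0.99, -0.84 and -2.56. Sftpa1, a surfactant protein gene, was at -5.17 ± 1.04, Lpcat1 at -2.28 ± 0.58, Abca3 at -1.88 ± 0.78 and Slc34a2 at -1.74 ± 0.71 (adjusted p = 0.102 for Sftpa1 and 0.367 for the others, limma). The summed intensity of the list was 16897 to 63983 in CKO lungs, against 90175 to 106695 in wild type lungs. General epithelial markers had a median of -0.29 over 14 genes, or 0.16 without pair 3 and 0.27 after cyclic loess, and summed to 7234 to 24958 in CKO lungs, against 21784 to 22826 in wild type lungs. Prom1 was at -0.76 ± 0.41, Ocln at -0.56 ± 0.38, Krt19 at -1.01 ± 1.09 and Cldn4 at 0.50 ± 0.28. The difference between these lists and the 9 club cell genes was not tested.

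**Figure D5:**
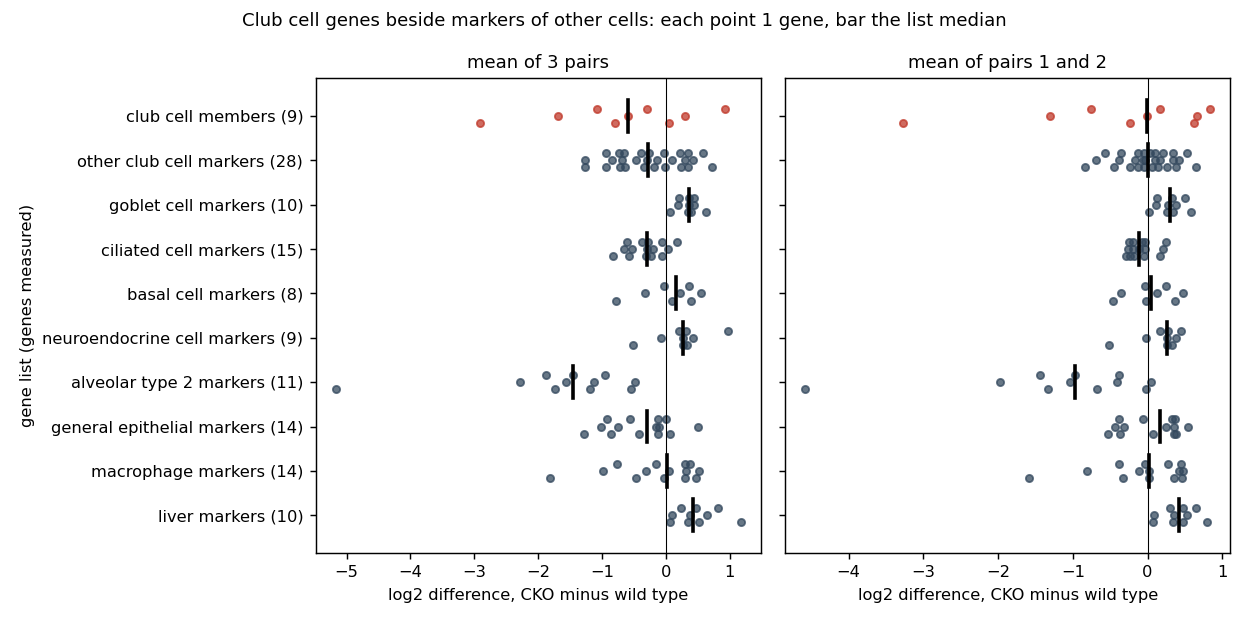
Log2 difference (horizontal axes, Smad1 CKO minus wild type) of each gene in 10 lists (rows, with the number of genes measured), as the mean of 3 pairs (left) and of pairs 1 and 2 (right); bars are list medians. The 9 club cell genes (red) spread from -2.91 to 0.93 over 3 pairs, while alveolar type 2 markers have a median of -1.45 and goblet cell markers one of 0.36 over 3 pairs.

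Genes with the most similar profile were found by the root mean square distance between log2 levels over the 6 arrays, each centred on its own mean. Those closest to Scgb1a1 were Matn4, Fmo2, Mmp2, Eif1b and Mfap4, at distances of 0.097 to 0.13, and those closest to Scgb3a2 were Uqcrb, Hsbp1, Slc25a4, Tubb4b and Nup50, at 0.049 to 0.052. All 10 had pair 3 differences between -2.30 and -1.69. The closest to Pon1 were Gjb6, Ddc, Scd1, Zfp385b and Bex2, at 0.46 to 0.54, which were lower in all 3 pairs. The distance was not scaled to the size of a gene's differences, so distances from Pon1 and from the secretoglobins cannot be compared. The neighbours were picked on these same values, so their like pair differences are no separate result.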

How the data were processed

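The table holds probe set intensity on a linear scale, deposited by the authors, with RMA named in the submitters' processing notes. The sources used here give neither software nor settings. Groups come from the genotype labels. Pairs follow the design text and the letters and neighbouring numbers in the array names. Deviations from group means correlated across probe sets at 0.258, 0.604 and 0.597 within pairs and at 0.215 or lower between them. Deviations cancel out within a group, so these correlations depend on each other and are no separate test of the pairing.

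The 64 control probe sets were left out. Intensities were turned into log2(value + 1) and tested with limma 3.58.1 in R 4.3.3 (two-sided, pair as a fixed block, Benjamini-Hochberg over 45037 probe sets). Adding 1 slightly understates the differences of dim probe sets. A gene was represented by its brightest probe set. The number of arrays limits the precision. Member IDs matched RefSeq genes for all 9 genes.

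The 9 genes and all 17 lists were chosen with earlier results of these data known. The text names all 9 genes, their relatives, the 4 genes of each list with the smallest p, nearest profiles and Cbr2. Alternatives were the fit without the pair, quantile and cyclic loess normalization, a pseudocount of 16, no dim probe sets, an intensity trend, and arrays left out. A comparison with similarly bright probe sets was added later.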

Additional observations from a re-analysis of the deposited data

Results flagged for a closer look

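The control probe sets for 18S ribosomal RNA averaged 2194 on the array of Smad1 CKO 3, above the 154.0 to 201.0 of the wild type arrays. They lie outside the comparisons of genes, and the same array holds the lowest values of 7 of the 9 club cell genes.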

How the results depend on the processing

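Pon1, Retnla and Aldh1a1 stayed lower, and Scgb3a1 higher, in all 10 alternatives. Of 90 values of the 9 genes under these alternatives, 76 kept direction and call, 3 (all Pon1, given above) passed and 11 changed sign without passing. After quantile normalization Scgb3a2 was at 0.065 and Cyp2f2 at 0.26, and after cyclic loess they were at 0.12 and 0.33. With a pair or Smad1 CKO 3 left out, Scgb1a1 ran over -1.10 to 0.047, Scgb3a2 over -0.90 to 0.062, Cyp2f2 over -0.59 to 0.35, Aldh1a7 over -0.28 to 0.73 and Cckar over -0.12 to 0.84. Scgb1a1, Scgb3a2 and Cyp2f2 turned without Smad1 CKO 3, and Cyp2f2 also without pair 3. Aldh1a7 turned without pair 1 or 2, and Cckar without pair 2. The median of the 9 genes was 0.065 after quantile normalization, 0.12 after cyclic loess and -0.90 to -0.005 with 1 pair left out.

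The number of probe sets past the adjusted threshold, 1 with the paired fit, was 0 without the replicate block, 0 after quantile normalization, 2 after cyclic loess and 0 with a pseudocount of 16. It was 17 without the dimmest probe sets, where fewer probe sets were tested, 32 with an intensity trend, and 0 to 28 with 1 pair left out. The cause was not tested for the other settings. Without Smad1 CKO 3 it was 1. No detection calls were used here, so levels near the array median, such as those of Pon1 in CKO lungs and of the goblet cell markers, were not tested against background.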

Other observations

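Markers of other airway cells were read from the same fit, and 0 passed after adjustment. Over all genes, 29.3% were lower and 21% were higher in all 3 pairs. Of 15 ciliated cell markers, 5 were lower and 1 was higher in all 3 pairs, with a median of -0.30, or -0.11 without pair 3. Tppp3, a tubulin-binding protein of cilia, was at -0.65 ± 0.65, Mlf1 at -0.83 ± 1.06, Ccdc113 at -0.53 ± 0.56 and Pifo at -0.61 ± 0.75. Of 8 basal cell markers, 2 were lower and 1 was higher in all 3 pairs (median 0.16), with Ngfr, a neurotrophin receptor, at 0.55 ± 0.25, Krt5 at 0.39 ± 0.36 and Krt14 at 0.36 ± 0.57. Pdpn, which alveolar type 1 cells also express, was at -0.78 ± 0.74, with all CKO lungs below all wild type lungs.

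Of 9 neuroendocrine cell markers, 2 were lower and 4 were higher in all 3 pairs, against 29.3% and 21% of all genes. Their median was 0.27. Grp, gastrin-releasing peptide, was at -0.51 ± 0.27 and Syp, a vesicle protein, at 0.98 ± 1.11, while Pcsk1 was at 0.42 ± 0.43 and Chga at 0.33 ± 0.17. The 5 pancreas markers, read because Cckar is also a pancreatic gene, had a median of 0.11 and summed to 586.3 to 746.2 in CKO lungs, against 609.4 to 739.1 in wild type lungs. Cpa1 was at -0.59 ± 0.34, Ins2 at 0.59 ± 0.46, Ctrb1 at 0.30 ± 0.28 and Cela1 at -0.21 ± 0.55.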
